A study of Mus musculus with 2 samples.

Results

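The genes described here are 10 mouse genes of macrophage scavenging and efferocytosis, the uptake of dying cells. They are the scavenger receptors Msr1, Marco, Cd163 and Stab1, the receptor tyrosine kinases Mertk and Axl with their ligand Gas6, and the complement C1q chains C1qa, C1qb and C1qc. They were picked by symbol, and all 10 were found among the 34745 gene identifiers of the deposited table. The cells were macrophages grown from the marrow of C57BL/6 mice, a culture model of activated macrophages. One library came from cells transfected with an antisense oligonucleotide (ASO) named for Acly (AclyE14-ASO), and 1 library came from cells transfected with a control oligonucleotide (Control-ASO). Both cultures were also treated with lipopolysaccharide (LPS), a bacterial cell wall component that activates macrophages, and no culture without LPS or without an oligonucleotide was analysed here. The sources used here do not give the age and number of the mice or the dose and duration of LPS.

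Scavenger receptors bind modified lipoproteins, microbes and cell debris and carry them into the cell. In efferocytosis, the bridging protein Gas6 binds phosphatidylserine exposed on a dying cell and presents it to the TAM receptors (Tyro3, Axl and Mertk). C1q is built from A, B and C chains in equal numbers, starts the classical complement pathway, and also coats dying cells. Macrophages are a main source of C1q, and Mertk and C1q are linked to quiet clearance of cells rather than to inflammation.

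Each condition had 1 library, so no difference below has a replicate check, no test of the conditions was possible and no p-value is given. The AclyE14-ASO library held 12751076 gene counts and the Control-ASO library 14215397. Levels are FPKM, the authors' counts scaled to gene length and to the gene counts of the library. A gene was called higher or lower when FPKM + 1 differed by 1.5-fold or more, among the 8658 genes whose 2 libraries averaged 1 FPKM or more. The median log2 ratio of those genes, AclyE14-ASO over Control-ASO, was -0.13. Ratios of counts per library total carry exact 95% intervals, which cover counting error only and not variation between cultures. Sequenced reads can be copies of the same molecule, so the intervals can be too narrow even for counting error. All 17 macrophage markers matched had a mean above 1 FPKM, 5 of them called higher and 2 lower, with a median log2 ratio of 0.28. The shares over all expressed genes were 7.03% higher and 8.48% lower. Among the markers Lyz2 was at 12276 FPKM in the AclyE14-ASO library and 9798 FPKM in the Control-ASO library, Adgre1 at 67.4 FPKM with the AclyE14-ASO and 84.8 FPKM with the Control-ASO, and Itgam at 43.2 FPKM with the AclyE14-ASO and 9.12 FPKM with the Control-ASO. Gm49368, which overlaps Itgam on the same strand, had 6 counts in the AclyE14-ASO library and 1834 in the Control-ASO library. The count ratio was 4.74 for Itgam alone and 1.60 (interval 1.53 to 1.68) for the 2 genes summed. Acly, the gene the oligonucleotide is named for, was at 7.35 FPKM in the AclyE14-ASO library, against 13.3 FPKM in the Control-ASO library (count ratio 0.553, interval 0.506 to 0.603).

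Of the 10 genes, Gas6 and Msr1 were higher in the AclyE14-ASO library, C1qa was lower, and C1qb, C1qc, Axl, Mertk and Stab1 lay within 1.5-fold. Marco and Cd163 stayed below a mean of 1 FPKM. Among all expressed genes 7.03% were called higher and 8.48% lower, so 2 higher and 1 lower among 8 measured genes are small numbers against that background and say nothing of the set as a whole. The median log2 ratio of the 8 was 0.13. In RNA from a whole culture, fewer cells of a type and less RNA per cell cannot be told apart.

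**Figure D1:**
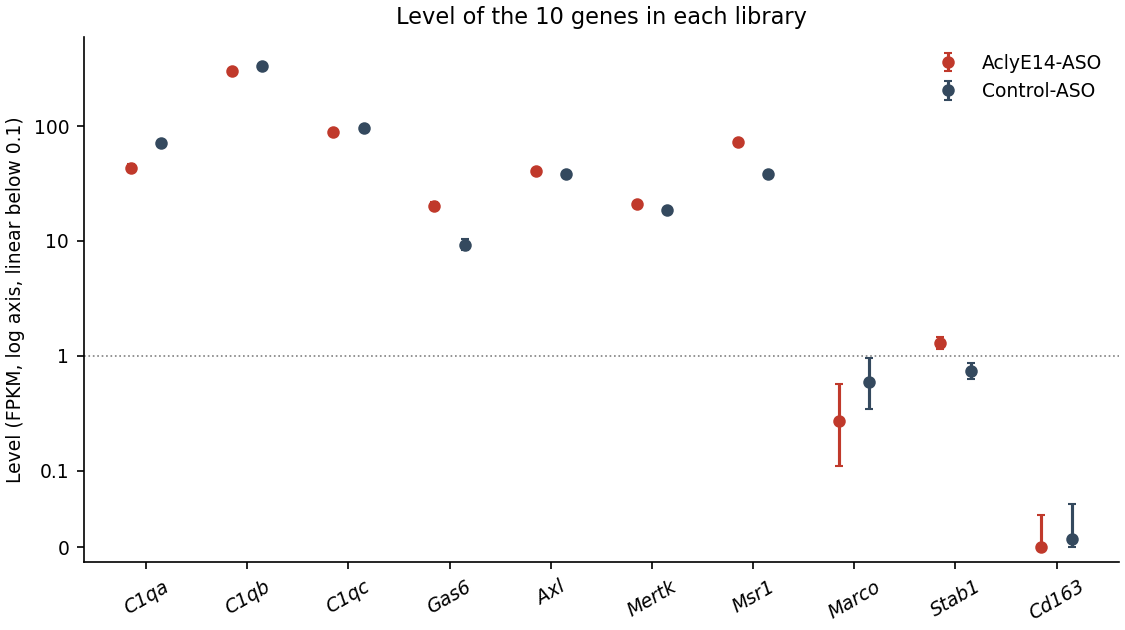
Level of each of the 10 genes in FPKM (vertical axis, logarithmic above 0.1), with the AclyE14-ASO library left of the Control-ASO library. Points are single libraries and bars are exact 95% Poisson counting intervals. C1qb is highest in both libraries, at 303 FPKM with the AclyE14-ASO and 331 FPKM with the Control-ASO, and the dotted line marks 1 FPKM, with Marco and Cd163 below it in both libraries.

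The C1q chains did not move alike. The A chain gene C1qa was at 42.9 FPKM from 569 counts in the AclyE14-ASO library, against 71.2 FPKM from 1053 counts in the Control-ASO library. Relative to the library totals it was 39.8% lower (interval 33.2% to 45.7%), with a log2 ratio of -0.72 that only 4.60% of expressed genes undercut. The B chain gene C1qb was the most abundant of the 10 genes in both libraries, at 303 FPKM from 4198 counts in the AclyE14-ASO library and 331 FPKM from 5113 counts in the Control-ASO library. The C chain gene C1qc was at 88.7 FPKM from 2431 counts in the AclyE14-ASO library and 97.0 FPKM from 2962 counts in the Control-ASO library. The count ratios of C1qb and C1qc were both 0.915, with intervals of 0.879 to 0.954 and 0.867 to 0.966. Both genes stood at the middle of the transcriptome, with 49.92% (C1qb) and 49.97% (C1qc) of expressed genes at a smaller log2 ratio. Their log2 ratios of -0.13 became 0.00 when centred on the median gene, so their small deficit was that of the median gene. When centred on the macrophage markers both became -0.40, still within 1.5-fold.

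Set against each other within a library, C1qa over C1qb was 0.142 in the AclyE14-ASO library and 0.215 in the Control-ASO library on the FPKM scale. The ratio of these ratios, from the counts, was 0.658 (interval 0.589 to 0.735), and for C1qa over C1qc it was likewise 0.658 (0.586 to 0.740). For C1qb over C1qc it was 1.0004 (0.935 to 1.07). These comparisons do not depend on how the libraries are scaled to each other. C1qa made up 9.88% of the summed C1q level of 434 FPKM in the AclyE14-ASO library and 14.3% of 499 FPKM in the Control-ASO library. The share of C1qb was 69.7% in the AclyE14-ASO library and 66.3% in the Control-ASO library.

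The 3 genes lie side by side on the minus strand of chromosome 4 (GRCm38), with C1qb at chr4:136880129-136886187 (ENSMUSG00000036905), C1qc at chr4:136889804-136893065 (ENSMUSG00000036896) and C1qa at chr4:136895917-136898803 (ENSMUSG00000036887). Gaps of 3616 and 2851 bases separate them, each has 3 exon blocks in the GENCODE annotation, and 0 other genes of the table lie between them. None of the 3 overlaps another annotated gene, and 0 of their 50-base transcript words occur in a transcript of another gene, so reads of that length are not shared among the chains. The lengths behind the deposited FPKM values were 1040 bases for C1qa, 1088 for C1qb and 2149 for C1qc. The longest annotated C1qc transcript has 1203 bases, and with that length C1qc is at 158 FPKM in the AclyE14-ASO library and 173 FPKM in the Control-ASO library, 1.79 times the deposited level. The shares of C1qa are then 8.51% in the AclyE14-ASO library and 12.4% in the Control-ASO library.

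The upstream sequences of C1qb and C1qc are shown because these neighbouring genes had the same count ratio. C1qa had no entry among the promoters used, so its sequence could not be set beside them. They come from RefSeq (GRCm38.p6), run 5′ to 3′ on the minus strand and end 1 base before the most upstream annotated start. The C1qb window is chr4:136886201-136886450 (250 bases) and the C1qc window is chr4:136893066-136893164 (99 bases, cut short because GENCODE places the start of C1qc farther upstream than RefSeq). Capitals mark GAGGAA, the core bound by the myeloid factor PU.1, on either strand.
C1qb: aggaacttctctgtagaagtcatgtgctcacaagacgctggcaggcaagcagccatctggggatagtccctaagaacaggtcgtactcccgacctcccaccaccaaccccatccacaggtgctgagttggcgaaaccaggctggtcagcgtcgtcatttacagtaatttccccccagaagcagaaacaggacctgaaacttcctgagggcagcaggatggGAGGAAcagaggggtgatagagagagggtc
C1qc: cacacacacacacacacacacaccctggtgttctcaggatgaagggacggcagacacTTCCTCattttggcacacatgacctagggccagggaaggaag
The C1qb window held 1 GAGGAA and the C1qc window likewise 1, where it reads TTCCTC on the printed strand. Of the 32851 RefSeq windows of 250 bases, 23.3% hold GAGGAA, and 9.91% hold it when cut to the 99 bases farthest upstream. A match is a description of the letters and not a site of binding. Spi1, which encodes PU.1, was at 73.4 FPKM with the AclyE14-ASO and 92.9 FPKM with the Control-ASO (count ratio 0.791, interval 0.755 to 0.828).

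**Figure D2:**
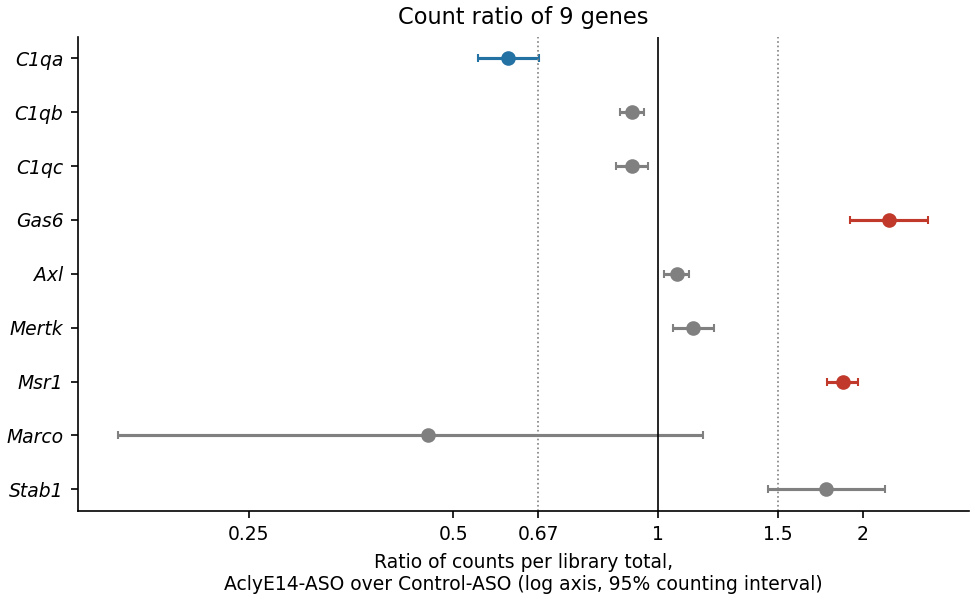
Ratio of counts per library total, AclyE14-ASO over Control-ASO (horizontal axis, logarithmic), with exact 95% counting intervals and dotted lines at 1.5-fold. Gas6 (2.18), Msr1 (1.87) and Stab1 (1.77) lie right of the upper line, and the interval of Stab1 (1.45 to 2.15) crosses it. Stab1 was not called on FPKM + 1. C1qb and C1qc share a ratio of 0.915, and C1qa lies at 0.602. Marco lies farthest left at 0.459, from few counts, with an interval of 0.161 to 1.16. Cd163 is left out, with 0 counts in the AclyE14-ASO library and 1 count in the Control-ASO library.

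In the TAM system the ligand was higher while its 2 measured receptors were not. Gas6 (ENSMUSG00000031451, chr8:13465374-13494490, minus strand) was at 20.3 FPKM from 672 counts in the AclyE14-ASO library, against 9.31 FPKM from 343 counts in the Control-ASO library. Tmem255b, which overlaps it on the other strand, had 0 counts in both libraries. The count ratio of Gas6 was 2.18 (interval 1.91 to 2.49) and the log2 ratio 1.05, the highest of the 10 genes and above 97.2% of expressed genes. Axl, the TAM receptor induced in activated macrophages (ENSMUSG00000002602, chr7:25757273-25788705), was at 40.7 FPKM from 4440 counts in the AclyE14-ASO library and 38.3 FPKM from 4650 counts in the Control-ASO library. Its count ratio was 1.06 (1.02 to 1.11). Mertk, the TAM receptor of resting and clearing macrophages (ENSMUSG00000014361, chr2:128698956-128802894), was at 20.8 FPKM from 1622 counts in the AclyE14-ASO library and 18.5 FPKM from 1605 counts in the Control-ASO library, a count ratio of 1.13 (1.05 to 1.21). Both receptors were well inside the 1.5-fold limits, with log2 ratios of 0.09 (Axl) and 0.16 (Mertk). These became 0.22 and 0.29 when centred on the median gene, and -0.19 and -0.11 when centred on the macrophage markers.

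Gas6 over Axl was 0.499 in the AclyE14-ASO library and 0.243 in the Control-ASO library on the FPKM scale, and the ratio of these, from the counts, was 2.05 (1.79 to 2.36). Gas6 over Mertk was 0.976 in the AclyE14-ASO library and 0.503 in the Control-ASO library, a ratio of 1.94 (1.67 to 2.25). The receptors kept their proportion to each other, with a ratio of ratios for Mertk over Axl of 1.06 (0.976 to 1.15). Pros1, which encodes protein S, the other TAM ligand, was at 5.43 FPKM from 317 counts in the AclyE14-ASO library and 2.27 FPKM from 148 counts in the Control-ASO library (count ratio 2.39, 1.96 to 2.92). The third TAM receptor gene, Tyro3, was scarce, with 5 counts in the AclyE14-ASO library and 33 in the Control-ASO library, a mean below 1 FPKM. The lengths behind the FPKM values were 2.004 times the longest annotated transcript for Axl and 1.42 times for Mertk, so their levels against Gas6 depend on the gene length, while their ratios between libraries do not.

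**Figure D3:**
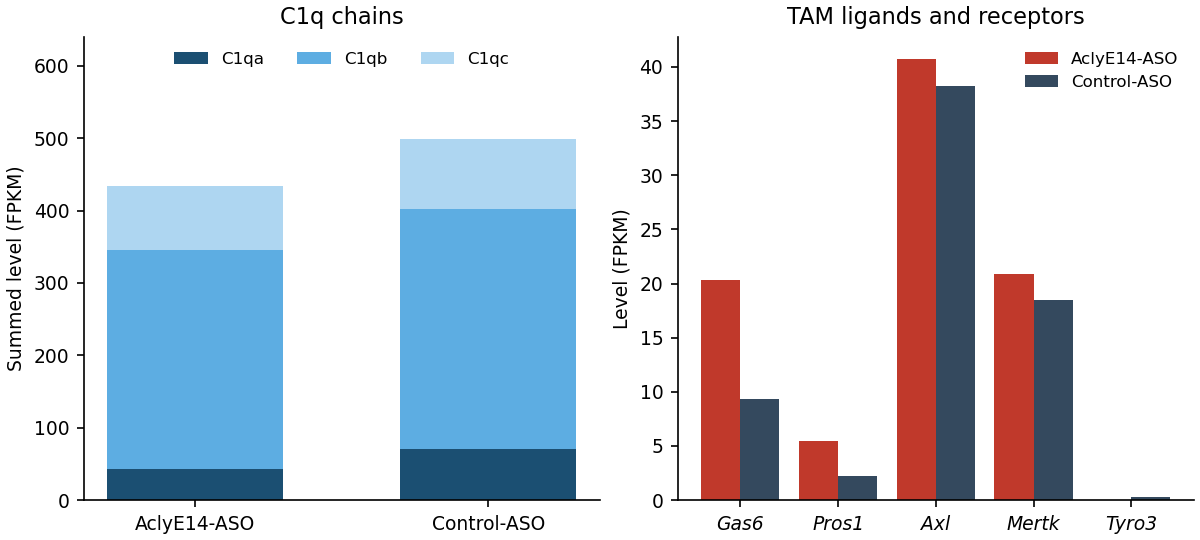
Left, summed level of the C1q chains in FPKM in the AclyE14-ASO and Control-ASO libraries, stacked by chain, where C1qa makes up 9.88% with the AclyE14-ASO and 14.3% with the Control-ASO. Right, level in FPKM of the TAM ligands Gas6 and Pros1 and the receptors Axl, Mertk and Tyro3 in each library, where both ligands are more than 2-fold higher by counts in the AclyE14-ASO library and Axl and Mertk nearly equal. Bars are single libraries without error bars.

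Gas6, protein S and TAM receptors are also made outside macrophages, among others by fibroblasts and endothelial cells, and markers of such cells differed between the libraries. Of 20 fibroblast and stromal markers, 15 reached a mean of 1 FPKM and all 15 were called higher in the AclyE14-ASO library, with a median log2 ratio of 1.65. Of all expressed genes 7.03% were called higher. Their summed level was 272 FPKM in the AclyE14-ASO library and 62.7 FPKM in the Control-ASO library, and 8 of the 20 reached 1 FPKM in the Control-ASO library, so that 7 of the 15 passed the limit on low values through the AclyE14-ASO library alone. None of the 20 was at 0 counts in both libraries. Of 10 endothelial markers 3 were measured, summed over all 10 to 13.1 FPKM in the AclyE14-ASO library and 16.5 FPKM in the Control-ASO library, with Cldn5, Tek and Emcn at 0 in both. Kdr alone was called lower (5.49 FPKM with the AclyE14-ASO and 11.1 FPKM with the Control-ASO), while Cdh5 (1.97 FPKM with the AclyE14-ASO and 1.09 FPKM with the Control-ASO) and Eng (4.81 FPKM with the AclyE14-ASO and 3.77 FPKM with the Control-ASO) were within 1.5-fold with positive log2 ratios, so the direction of the sum is that of Kdr. The part of stromal cells in the levels of Gas6 and Pros1 was not tested.

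The Gas6 upstream sequence is shown as that of the gene with the highest ratio (RefSeq, GRCm38.p6, chr8:13494536-13494785, 250 bases on the minus strand, 5′ to 3′). Capitals mark CCGCCC, the GC box of ubiquitous promoters, on either strand.
Gas6: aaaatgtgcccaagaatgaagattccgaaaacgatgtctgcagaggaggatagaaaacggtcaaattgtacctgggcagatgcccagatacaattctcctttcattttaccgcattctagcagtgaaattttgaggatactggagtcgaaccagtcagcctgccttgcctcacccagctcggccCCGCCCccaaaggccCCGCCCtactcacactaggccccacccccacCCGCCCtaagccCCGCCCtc
The Gas6 window held 4 copies of CCGCCC, which occurs in 32.7% of RefSeq windows of 250 bases, and 0 copies of GAGGAA. The STAT motif TTCNNNGAA, searched on both strands, was found in 0 of the windows shown, in 7.02% of all windows of 250 bases and in 2.83% of those cut to 99 bases. The absence of these letters says nothing of the factors themselves.

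The scavenger receptors split by abundance. Msr1, the class A receptor for modified lipoproteins and bacterial lipid A (ENSMUSG00000025044, chr8:39581685-39642673, minus strand), was at 72.1 FPKM from 3675 counts in the AclyE14-ASO library, against 38.6 FPKM from 2195 counts in the Control-ASO library. The count ratio was 1.87 (interval 1.77 to 1.97) and the log2 ratio 0.88, above 96.1% of expressed genes. Msr1 stood above C1qa in the AclyE14-ASO library and below it in the Control-ASO library. Marco, a class A receptor with a collagen-like stalk that binds bacteria (ENSMUSG00000026390, chr1:120474538-120505024), had 7 counts (0.273 FPKM) in the AclyE14-ASO library and 17 (0.594 FPKM) in the Control-ASO library, and the interval of its ratio (0.161 to 1.16) includes no difference.

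Stab1, which encodes stabilin-1, a receptor for modified lipoproteins, the matrix protein SPARC and dying cells (ENSMUSG00000042286, chr14:31139013-31168641), was at 1.301 FPKM from 266 counts in the AclyE14-ASO library and 0.737 FPKM from 168 counts in the Control-ASO library. Its count ratio was 1.77 (1.45 to 2.15), an interval that spans 1.5-fold, and its log2 ratio of 0.41 was held down by the pseudocount. It passed the limit on low values through the AclyE14-ASO library alone. The length behind its FPKM was 2.004 times the longest annotated transcript, and with that transcript as the length it is at 2.61 FPKM in the AclyE14-ASO library and 1.48 FPKM in the Control-ASO library. Exons of Nt5dc2 on the other strand overlap those of Stab1, and Nt5dc2 had 173 counts in the AclyE14-ASO library and 68 in the Control-ASO library. No source used here says whether counting used the strand, so reads of the overlap cannot be assigned with certainty. Cd163, the receptor for haptoglobin bound to haemoglobin (ENSMUSG00000008845, chr6:124304656-124330527), had 0 counts in the AclyE14-ASO library, which allows up to 3 counts or 0.0338 FPKM, and 1 count in the Control-ASO library. At this depth Cd163 mRNA was at the limit of detection in both cultures and no difference could be seen.

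The order of levels over the 10 genes was C1qb, C1qc, Msr1, C1qa, Axl, Mertk, Gas6, Stab1, Marco and Cd163 in the AclyE14-ASO library, and C1qb, C1qc, C1qa, Msr1, Axl, Mertk, Gas6, Stab1, Marco and Cd163 in the Control-ASO library. Only the places of C1qa and Msr1 differ. In the AclyE14-ASO library the counting intervals of C1qa (39.5 to 46.6 FPKM) and Axl (39.6 to 42.0 FPKM) overlapped, as did those of Mertk (19.8 to 21.9 FPKM) and Gas6 (18.8 to 21.9 FPKM). In the Control-ASO library those of Msr1 (37.0 to 40.3 FPKM) and Axl (37.2 to 39.4 FPKM) overlapped. With the longest annotated transcript as the length, Axl comes right after C1qb and C1qc in both libraries, at 81.6 FPKM in the AclyE14-ASO library and 76.7 FPKM in the Control-ASO library.

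Other genes of these systems were read from 7 lists that hold 128 further genes, of which 99 were measured, 16 (16.2%) called higher and 13 (13.1%) lower, against 7.03% higher and 8.48% lower of all expressed genes. The lists were chosen with earlier results known, and these shares are a description. The stromal markers described above were higher in the AclyE14-ASO library too, and their part in the differences given for these lists was not tested. Among the other scavenger receptors 0 of 11 measured were higher and 3 were lower, with a median log2 ratio of -0.16. Cd68, a lysosomal scavenger receptor, was at 590 FPKM in the AclyE14-ASO library and 1059 FPKM in the Control-ASO library (count ratio 0.557, 0.546 to 0.568). Scarb1, a receptor for high-density lipoprotein (2.56 FPKM with the AclyE14-ASO and 4.41 FPKM with the Control-ASO), was lower too. The fatty acid and lipoprotein receptor Cd36 was at 183 FPKM in the AclyE14-ASO library and 205 FPKM in the Control-ASO library.

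Among the other receptors, bridging proteins and brakes of efferocytosis 6 of 17 measured were higher and 2 lower, with a median log2 ratio of 0.30. Besides Pros1, the higher genes included Havcr2, which encodes TIM-3 (3.81 FPKM in the AclyE14-ASO library and 1.84 FPKM in the Control-ASO library), and Anxa1, which encodes annexin A1 (332 FPKM with the AclyE14-ASO and 198 FPKM with the Control-ASO). Mfge8, a bridge from phosphatidylserine to integrins, was at 308 FPKM in the AclyE14-ASO library and 195 FPKM in the Control-ASO library (count ratio 1.58, 1.55 to 1.61). The integrin chain Itgb3 that can receive it was lower (1.10 FPKM with the AclyE14-ASO and 2.44 FPKM with the Control-ASO, 0.451, 0.362 to 0.559). The other integrin chains of the list, Itgav (count ratio 1.48, 1.38 to 1.59) and Itgb5 (1.18, 1.07 to 1.31), had ratios above 1 and lay within 1.5-fold on FPKM + 1. Cd300lb, a phosphatidylserine receptor, was lower as well, at 6.09 FPKM in the AclyE14-ASO library and 11.2 FPKM in the Control-ASO library. Mfge8, Sirpa and Thbs1 completed the higher genes and are named beyond the rule, after their values were seen, as are Itgav and Itgb5. Lgals3, the most abundant, was at 2244 FPKM in the AclyE14-ASO library and 2553 FPKM in the Control-ASO library.

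Of 23 measured engulfment genes 18 lay within 1.5-fold, as did 84.5% of all expressed genes, with 4 higher, 1 lower and a median log2 ratio of -0.04. Rac1, the small GTPase that drives the phagocytic cup, was at 42.5 FPKM in the AclyE14-ASO library and 11.2 FPKM in the Control-ASO library (count ratio 3.80, 3.54 to 4.08). Summed with Daglb, which overlaps it on the other strand, the ratio was 2.70 (2.56 to 2.85). P2ry6, a receptor for UDP that promotes engulfment, was at 20.1 FPKM in the AclyE14-ASO library and 6.57 FPKM in the Control-ASO library, and the adaptor Crk at 10.98 FPKM with the AclyE14-ASO and 4.68 FPKM with the Control-ASO. Elmo1, part of the exchange factor for Rac1, was lower, at 3.05 FPKM in the AclyE14-ASO library and 5.53 FPKM in the Control-ASO library. Among 7 measured genes that act in receptor shedding 2 were higher and 0 lower, with a median log2 ratio of 0.19. They were Timp3, an inhibitor of shedding enzymes that stromal cells also make (5.90 FPKM with the AclyE14-ASO and 1.20 FPKM with the Control-ASO), and the protease Adam9 (25.3 FPKM with the AclyE14-ASO and 15.9 FPKM with the Control-ASO). Adam17, the main protease that cleaves Mertk, was at 17.9 FPKM in the AclyE14-ASO library and 22.8 FPKM in the Control-ASO library.

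Complement genes around C1q moved both ways, with 3 of 14 measured higher, 4 lower and a median log2 ratio of 0.16. The central component C3 was lower, at 25.5 FPKM in the AclyE14-ASO library and 56.9 FPKM in the Control-ASO library (count ratio 0.449, 0.425 to 0.474). So were C3ar1, the receptor for C3a (94.9 FPKM with the AclyE14-ASO and 198 FPKM with the Control-ASO), and Cfp, which encodes properdin (34.2 FPKM with the AclyE14-ASO and 61.0 FPKM with the Control-ASO). Serping1, the C1 inhibitor (4.65 FPKM with the AclyE14-ASO and 1.47 FPKM with the Control-ASO), C4b (2.73 FPKM with the AclyE14-ASO and 1.296 FPKM with the Control-ASO) and Cd93 (17.0 FPKM with the AclyE14-ASO and 7.22 FPKM with the Control-ASO) were higher. Of the C1 proteases that bind C1q, C1ra was at 4.89 FPKM in the AclyE14-ASO library and 5.71 FPKM in the Control-ASO library, and C1s1 stayed below a mean of 1 FPKM, with 87 counts in the AclyE14-ASO library and 21 in the Control-ASO library.

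Of 20 measured transcription factors chosen as known regulators of these genes 18 lay within 1.5-fold, near the share of all expressed genes, with 1 higher, 1 lower and a median log2 ratio of -0.20. Pparg, a nuclear receptor of lipid handling, was lower, at 2.48 FPKM in the AclyE14-ASO library and 5.02 FPKM in the Control-ASO library (count ratio 0.493, 0.399 to 0.608). Nr1h3, which encodes the sterol receptor LXR alpha known to induce Mertk, was at 10.8 FPKM in the AclyE14-ASO library and 13.7 FPKM in the Control-ASO library. Irf1, the most abundant, was at 128 FPKM in the AclyE14-ASO library and 147 FPKM in the Control-ASO library.

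**Figure D4:**
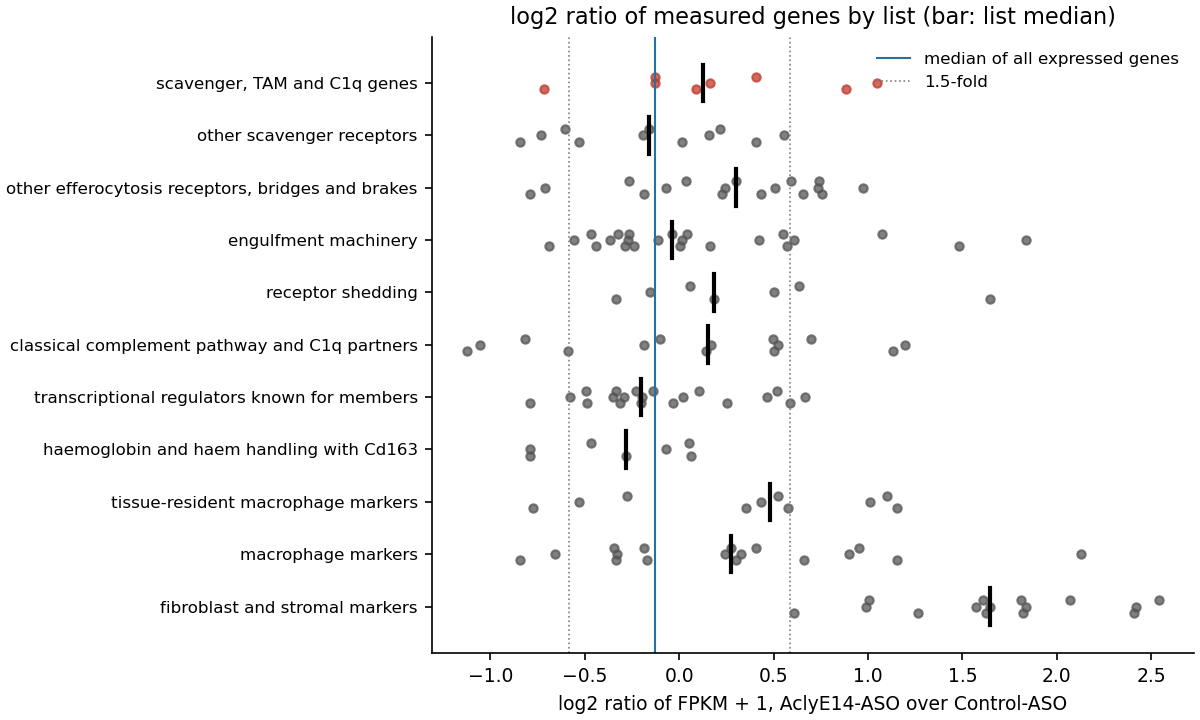
The horizontal axis gives the log2 ratio (FPKM + 1, AclyE14-ASO over Control-ASO) for the measured genes of each list (rows), with black bars at list medians, dotted lines at 1.5-fold and a blue line at the median of all expressed genes, -0.13. The 8 measured genes of those described here (red) spread from -0.72 to 1.05, while all 15 fibroblast and stromal markers lie right of the upper limit.

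The calls of Gas6, Msr1 and C1qa were set beside other ways of scaling. The log2 ratio of Gas6 ranged from 0.77 to 1.18 over 15 alternatives and passed 1.5-fold in each, and 2-fold where that was the limit. That of Msr1 ranged from 0.61 to 1.01, and Msr1 was not called at 2-fold, where 3.18% of expressed genes were higher and 1.55% lower. That of C1qa ranged from -0.99 to -0.59, close to the 1.5-fold limit when centred on the median gene. By counts, the upper end of its interval, 0.668, lay just inside 1.5-fold, so that C1qa was not called where the whole interval had to pass (5.94% of expressed genes were lower by that rule and 5.91% higher).

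**Figure D5:**
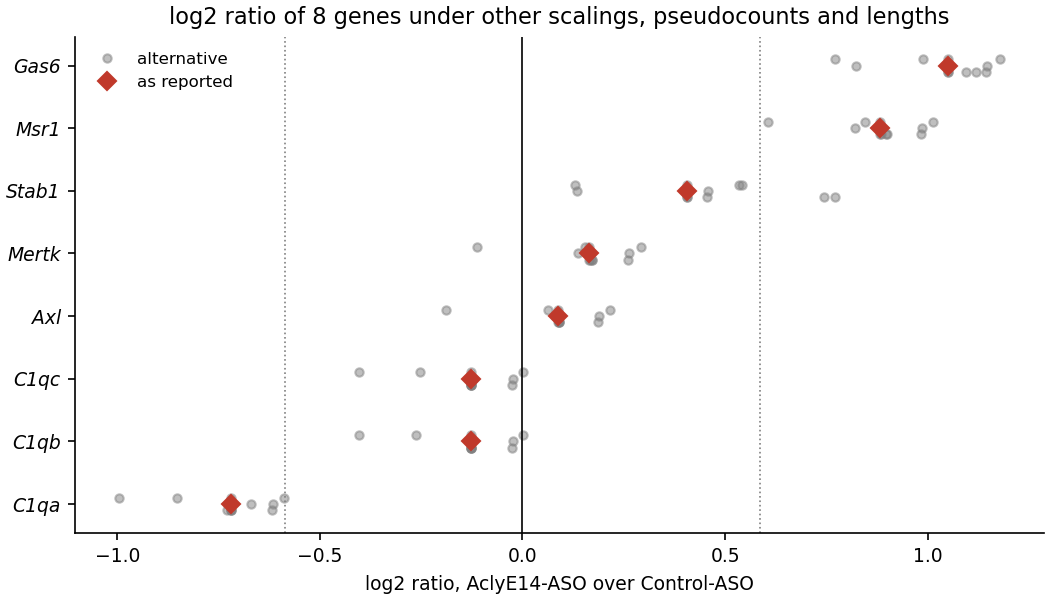
log2 ratio of the 8 measured genes (horizontal axis), AclyE14-ASO over Control-ASO, as reported (red diamonds) and under the alternative scalings, pseudocounts, filters and lengths (grey points), with dotted lines at 1.5-fold. Gas6 and Msr1 stay right of the upper line in all of these, C1qa stays left of the lower line, and C1qb and C1qc move together between -0.40 and 0.00.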

How the data were processed

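RNA-seq libraries of 1 AclyE14-ASO and 1 Control-ASO culture were compared. The deposited table gives raw counts and FPKM values per Ensembl gene, per the file headers. Its columns are headed Control and ASO14. The name ASO14 is in no label and was read as the AclyE14-ASO library, the only one besides Control-ASO, and every direction rests on that reading. The submitters' processing notes name StringTie 1.3.0, HISAT2, edgeR and mm10, with no role. The labels' protocols name a stranded kit; no source used here says whether counting used the strand or what was done with shared reads. Between the libraries, FPKM per count changed by 1.11, the ratio of the count totals, so the authors' FPKM carry no further scaling. Symbols, positions, lengths and overlaps came from GENCODE M21 (GRCm38, also called mm10), by identifier, for 34267 genes. RefSeq promoters were matched by symbol for 8 of the 10 genes, and C1qa and Msr1 had no entry.

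Computed here were log2 ratios of FPKM + 1, count ratios with exact conditional binomial (Clopper-Pearson) intervals, and ratios of 2 genes' counts between libraries with exact conditional intervals. The pseudocount of 1 understates changes of low genes. The 10 genes, the 14 lists and their limits were chosen with earlier results of these data known. Of each list the text names up to 3 genes at each end past 1.5-fold and the most abundant (not all are given), and other genes were chosen after their values were seen. Some genes counted in the lists are not reported here by name. Of the list entries 3 matched no symbol. The calculation was tested on simulated counts. TMM factors came from edgeR 4.0.16 and median-of-ratios factors from DESeq2 1.42.0 (R 4.3.3), the rest from SciPy 1.17.1, NumPy 2.4.6 and pandas 2.3.3 in Python 3.11.15. The alternatives were pseudocounts of 0.1 and 5, other scalings, filters and limits, CPM, sums over same-strand overlaps, and removal of cubic trends on transcript length and GC content. The longest-transcript length and totals without stromal markers were chosen after seeing the data.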

Additional observations from a re-analysis of the deposited data

How the results depend on the processing

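Over 15 alternatives no called gene of the 10 changed direction. At a 2-fold limit 1 gene was higher (Gas6) and 0 were lower, and where the whole counting interval had to pass 1.5-fold 0 were lower. Of the 128 genes of the other lists, 29 passed 1.5-fold, and the other settings gave 8 to 38. The count was 14 with a pseudocount of 5 (of all expressed genes 3.31% higher and 2.98% lower), 18 at a mean of at least 5 FPKM (6.29% and 9.60%) and 8 at 2-fold (3.18% and 1.55%). It was 38 with a pseudocount of 0.1 (9.09% and 13.7%) and 37 with CPM (8.52% and 12.6%). It was 36 when centred on the median gene (9.83% and 4.69%), with TMM (8.67% and 5.84%) and with median-of-ratios scaling (8.71% and 5.81%). With a pseudocount of 0.1 or with CPM in place of FPKM, Stab1 was called higher too, with log2 ratios of 0.74 and 0.77. Among all expressed genes 45.3% of the calls were higher, against 67.7% when centred on the median gene, 59.7% with TMM, 60.0% with median-of-ratios scaling and 12.5% when centred on the macrophage markers, which lowers every log2 ratio by 0.28. No paired analysis was possible because each group had 1 library. With 1 library each, variation between cultures cannot be measured, and depth limits Marco, Cd163, Tyro3 and Stab1.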

Other observations

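Markers of tissue-resident macrophages, which in tissues often carry C1q, Mertk and Cd163 together, did not all move alike. Of 17 matched, 10 were measured, and the AclyE14-ASO library had 3 of these called higher and 1 called lower. Over all expressed genes the calls came to 7.03% higher and 8.48% lower, and 3 and 1 of 10 are small numbers. The 10 markers had a median log2 ratio of 0.48, against -0.13 for all expressed genes. Apoe, the apolipoprotein of lipid efflux, was at 956 FPKM in the AclyE14-ASO library and 446 FPKM in the Control-ASO library, and the folate receptor Folr2 had 81 counts in the AclyE14-ASO library and 37 in the Control-ASO library. The chemokine Pf4 had 71 counts in the AclyE14-ASO library and 25 in the Control-ASO library. Ms4a7 was lower, at 35.8 FPKM in the AclyE14-ASO library and 62.0 FPKM in the Control-ASO library (count ratio 0.578, 0.551 to 0.607). Clec4f, Cx3cr1 and Lyve1 had 0 counts in both libraries.

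Among genes of haemoglobin and haem handling, 0 of 7 measured were higher and 2 were lower. Of all expressed genes 7.03% were higher and 8.48% lower, so these are small numbers against that background. Cd163 itself was at the limit of detection in both libraries. Hmox1, which breaks down haem, was at 47.5 FPKM in the AclyE14-ASO library and 82.9 FPKM in the Control-ASO library (count ratio 0.573, 0.540 to 0.608). Hp, which encodes haptoglobin, had 12 counts (0.701 FPKM) in the AclyE14-ASO library and 37 (1.94 FPKM) in the Control-ASO library, and passed the limit on low values through the Control-ASO library alone. The ferritin chain Fth1 was at 30338 FPKM in the AclyE14-ASO library and 29290 FPKM in the Control-ASO library. Among markers of other blood cells, 2 of 10 neutrophil, 2 of 10 dendritic and 1 of 10 lymphocyte markers were measured. Summed over its list, the neutrophil level was 48.1 FPKM in the AclyE14-ASO library and 24.0 FPKM in the Control-ASO library. Most of it was S100a8 (41.4 FPKM with the AclyE14-ASO and 19.7 FPKM with the Control-ASO), while S100a9, Ly6g, Retnlg, Camp and Elane had 0 counts in both libraries. The dendritic sum was 151 FPKM in the AclyE14-ASO library and 124 FPKM in the Control-ASO library, and the lymphocyte sum was 5.45 FPKM in the AclyE14-ASO library and 4.005 FPKM in the Control-ASO library. Itgax made up most of the dendritic sum (133 FPKM with the AclyE14-ASO and 121 FPKM with the Control-ASO), with Fscn1 at 16.7 FPKM in the AclyE14-ASO library and 2.74 FPKM in the Control-ASO library, and Lck made up most of the lymphocyte sum (5.26 FPKM with the AclyE14-ASO and 3.23 FPKM with the Control-ASO).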
